A study of Mus musculus with 6 samples.

Results

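The genes described here encode the machinery that copies DNA and the switches that start S phase, the phase of the cell cycle in which the genome is duplicated. They are 39 genes listed by name, with no cutoff on a measured value. All 39 were matched to an Entrez identifier, and all 39 are among the 15585 genes tested, out of 36528 identifiers listed. In each library 38 of them lay above the level at which the low-count filter keeps a gene, 0.464 CPM before normalisation (CPM is a count scaled to a common library size). E2f2 had 10 counts in 1 LPS library, just under that level, and it passed through the other groups.

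Replication starts at origins that the origin recognition complex marks. CDC6 and CDT1 load the ring of MCM proteins there in G1, and geminin holds CDT1 back once S phase has begun. CDC45 and MCM10 help turn the loaded ring into a running helicase, polymerases with their clamp PCNA copy both strands, and ribonucleotide reductase and thymidylate enzymes supply the building blocks. Transcription of many of these genes is driven by E2F factors, whose activity rises when cyclin E and its kinase are active. Microglia, the macrophages of the brain, divide in culture when growth factors allow it.

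The study sequenced polyadenylated RNA from mouse microglia in vitro in 3 groups of 2 libraries each. The groups were untreated wild-type cells, untreated cells labelled as Cop1 knockout (Cop1 KO), whose label also names loxP, and wild-type cells exposed to LPS (lipopolysaccharide of bacterial outer membranes, which activates macrophages). COP1 is a ubiquitin ligase. The labels state neither the dose or duration of LPS, nor a Cre driver, the age of the animals, or whether the 2 libraries of a group came from separate cultures. The p-values below therefore measure only the spread between these libraries, which may be technical.

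Library totals ran from 20568144 to 22553708 counts, and the 39 genes took 0.121% and 0.12% of all counts in untreated wild type, 0.0766% and 0.0758% in Cop1 KO and 0.0415% and 0.0409% with LPS. Cop1 itself stood at 12.7 and 11.5 CPM (from here on scaled with TMM factors) in untreated wild type, 8.06 and 9.23 in Cop1 KO and 23.4 and 27.2 with LPS. Its RNA was lower in the libraries labelled Cop1 KO (log2 fold change −0.49, SE 0.11, edgeR adjusted p = 0.00016, with 5.2e-07 to 0.075 over the alternatives) but missed the threshold on the nRPKM scale, and counts per gene may include exons outside the deleted part. Microglia markers were abundant in every library, with a summed level over 12 genes of 6513 and 6487 CPM untreated, 9913 and 9888 in Cop1 KO and 3566 and 3572 with LPS. The 11 astrocyte markers summed to 787 and 790 CPM in untreated wild type, 55.7 and 51.2 in Cop1 KO and 878 and 883 with LPS, and none of the 11 was at 0 in every library. In bulk RNA, fewer cells of a type and less RNA per cell cannot be told apart.

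The promoters of these genes often hold the letters that E2F factors bind. RefSeq promoter windows on GRCm38.p6 (250 bases before to 50 after a start site) were found for 34 of the 39 genes. A match to TTTCCCGC, TTTGGCGC, TTTCGCGC or TTTGCCGC on either strand was present for 14 of the 34 (41.2%), against 2.6% of 27025 genes with a window and 4.54% of the 11474 tested genes with one. The letters CCAAT, on either strand, were present for 21 of the 34 (61.8%), against 42.5% of the tested genes. A match describes the sequence and is no evidence that a factor binds there. The stretches below show 4 of the promoters with a match before the start. The genes were chosen after their values were seen, to show that such letters occur beside large and small changes: Uhrf1, Cdc6 and Mcm5 fell strongly in both comparisons with untreated wild type, and Mcm6 had 3 matches and changed least among the MCM ring genes. They run 5′ to 3′ on the gene's strand with the E2F letters in capitals, and only bases outside annotated exons are shown.
Uhrf1 (chr17:56304113-56304312, plus strand, in an intron of a longer transcript, directly before the start at 56304313): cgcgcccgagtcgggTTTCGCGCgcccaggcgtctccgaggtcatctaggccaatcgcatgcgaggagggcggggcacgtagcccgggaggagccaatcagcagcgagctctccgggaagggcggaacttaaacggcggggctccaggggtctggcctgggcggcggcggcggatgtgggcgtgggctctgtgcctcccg
Cdc6 (chr11:98907982-98908150, plus strand, in an intron of a longer transcript, directly before the start at 98908151): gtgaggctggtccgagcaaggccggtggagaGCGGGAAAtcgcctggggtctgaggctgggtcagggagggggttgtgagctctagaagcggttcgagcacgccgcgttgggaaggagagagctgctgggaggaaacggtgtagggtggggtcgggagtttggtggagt
Mcm5 (chr8:75109309-75109467, plus strand, before the gene): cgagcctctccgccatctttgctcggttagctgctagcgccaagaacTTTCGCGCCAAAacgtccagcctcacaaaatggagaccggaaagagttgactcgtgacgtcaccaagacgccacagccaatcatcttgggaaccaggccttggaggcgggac
Mcm6 (chr1:128359706-128359905, minus strand, directly before the start at 128359705): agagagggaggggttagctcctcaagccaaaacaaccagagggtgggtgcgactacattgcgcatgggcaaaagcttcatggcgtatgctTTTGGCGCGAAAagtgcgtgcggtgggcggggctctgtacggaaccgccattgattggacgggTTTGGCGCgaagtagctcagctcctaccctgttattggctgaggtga
In Mcm5 the 2 matches overlap on opposite strands and read as a single run of capitals, and in Mcm6 the first 2 matches do so while the third stands alone 47 bases before the start.

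Most replication genes were lower in Cop1 KO libraries than in untreated wild type. Most were also lower with LPS, with exceptions that differed between the 2 conditions. In Cop1 KO, 33 of the 39 fell, 1 rose (Cdt1) and 5 did not pass (Mcm6, Pola2, Pold1, Rfc3 and E2f1). Over all 15585 genes 30.3% fell and 28.1% rose. The median log2 fold change of the 39 was −0.66, beside −0.01 over all genes, and 14 of the 39 fell by at least 2-fold (14.5% of all genes did). With LPS, 31 fell, 5 rose (Cdt1, Pola2, Pcna, Rfc3 and Ccne1) and 3 did not pass (Orc1, Mcm10 and Tyms), where 43.4% of all genes fell and 30.2% rose. The median of the 39 was −1.58, beside −0.18 over all genes, and 25 fell by at least 2-fold (18.2% of all genes did). Calls are edgeR quasi-likelihood tests at an adjusted p below 0.05 with 2 libraries per group. Both comparisons use the same untreated libraries, so their values are given side by side. In them, 28 of the 39 genes were called lower in both, as were 14.6% of all genes. Scaling by library size alone, without TMM factors, moved the median of all genes with LPS from −0.18 to −0.74. It left 2 members higher and 37 lower with LPS, where 2678 of all 15585 genes were higher and 10770 lower. In Cop1 KO that scaling moved the median from −0.01 to −0.20. There 36 members were lower and 0 higher, where 7200 of all genes were lower and 2319 higher.

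**Figure D1:**
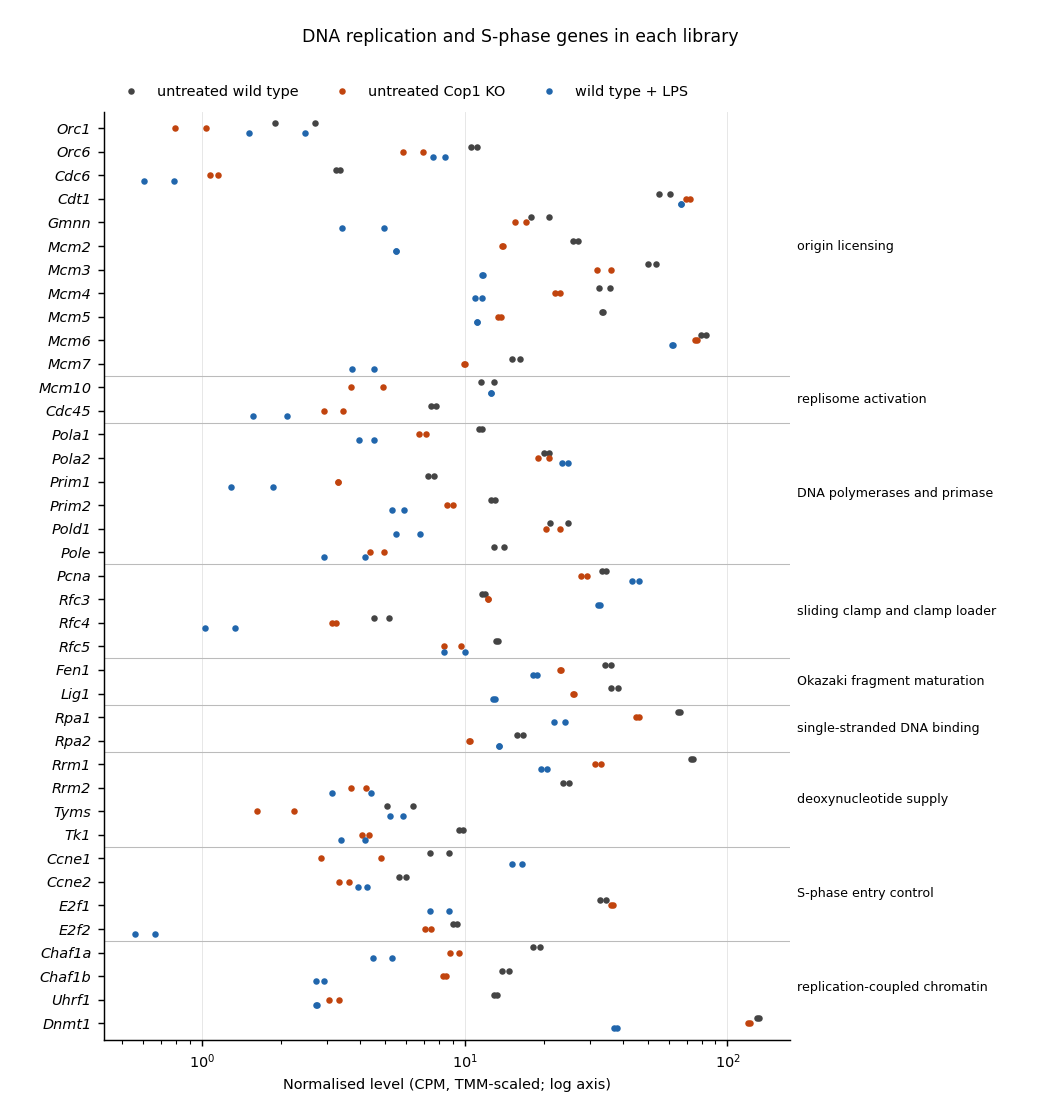
Normalised level in CPM (horizontal log axis) of each of the 39 genes in the 6 libraries, grouped by role, with 1 point per library. Dark grey points (untreated wild type) lie to the right of orange (Cop1 KO) and blue (LPS) points for most genes, while for Pola2, Pcna, Rfc3 and Ccne1 the blue points lie farthest right.

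**Figure D2:**
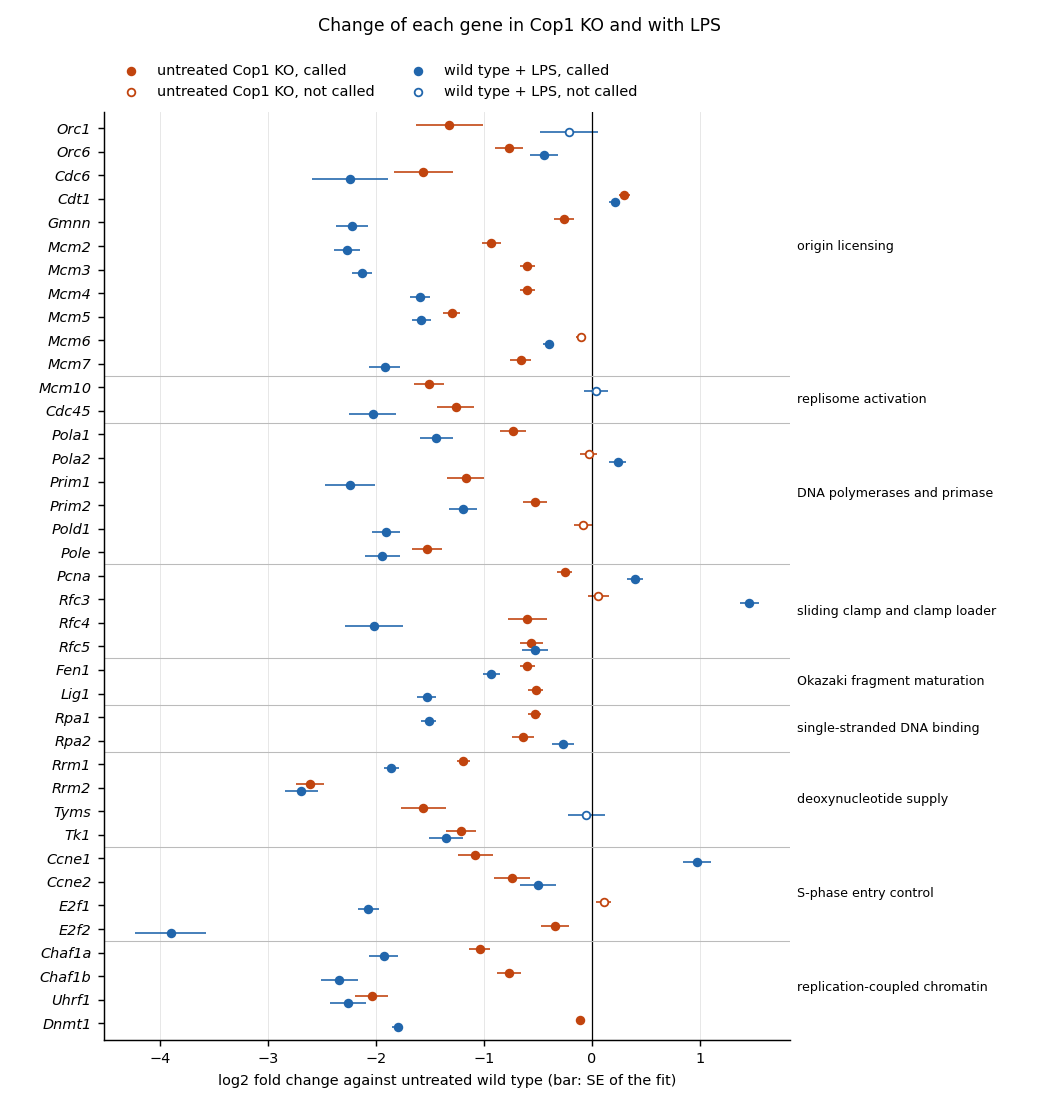
The log2 fold change against untreated wild type for Cop1 KO (orange) and LPS (blue), with the standard error of the fit as bars, and open symbols for genes that did not pass. Most symbols lie left of 0, with Rfc3 (1.46) and Ccne1 (0.97) farthest right for LPS and E2f2 (−3.90) farthest left.

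Of the 11 origin licensing genes 9 fell and Cdt1 rose in each condition, and the remaining one was Mcm6 in Cop1 KO and Orc1 with LPS. CDT1 brings the MCM ring to origins. Cdt1 (chromosome 8, 122568015 to 122573130) was at 60.3 and 55.1 CPM in untreated wild type, 69.7 and 72.0 in Cop1 KO and 66.6 and 66.5 with LPS. It was higher in both libraries of each condition, by 0.30 on the log2 scale in Cop1 KO (SE 0.05, adjusted p = 2.4e-06) and by 0.21 with LPS (SE 0.05, adjusted p = 0.0007). Neither increase held with library size only (0.11 and −0.36, with adjusted p from 1.3e-08 to 0.079 and from 3e-08 to 0.067 over all alternatives). The LPS value also missed the threshold without untreated replicate 2 (0.14, adjusted p = 0.067). Gmnn, which encodes the CDT1 inhibitor geminin, was at 17.9 and 20.9 CPM untreated, 17.1 and 15.5 in Cop1 KO and 3.41 and 4.95 with LPS. The LPS libraries thus held 4.67-fold less (−2.22, SE 0.15, adjusted p = 1.6e-21). The Cop1 KO difference was small (−0.26, SE 0.09, adjusted p = 0.018, with 4.9e-05 to 0.57 over the alternatives) and was lost with median-of-ratios factors, with DESeq2, on the nRPKM scale and without Cop1 KO replicate 2 (−0.18, adjusted p = 0.16) or untreated replicate 2 (−0.14, adjusted p = 0.37). Per length, in nRPKM (the authors' size-factor-adjusted RPKM, a level per gene length), the ratio of Gmnn to Cdt1 was 0.575 and 0.733 untreated, 0.473 and 0.416 in Cop1 KO and 0.099 and 0.144 with LPS. The inhibitor's RNA therefore stood lowest relative to its target's in the LPS libraries.

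CDC6 loads the ring together with CDT1, and Cdc6 was among the genes with the largest decreases in both conditions. Its level was 3.37 and 3.24 CPM untreated, 1.08 and 1.15 in Cop1 KO and 0.783 and 0.604 with LPS, the last from 14 and 10 counts. It fell by 1.56 in Cop1 KO (SE 0.27, adjusted p = 5.3e-07) and by 2.24 with LPS (SE 0.35, adjusted p = 3.9e-09). Orc1, the large origin subunit gene, was at 2.70 and 1.90 CPM untreated, 1.04 and 0.795 in Cop1 KO and 1.51 and 2.48 with LPS. Both Cop1 KO libraries lay below both untreated ones, and the decrease was 2.50-fold (−1.32, SE 0.31, adjusted p = 0.00016). With LPS 1 library lay below the untreated ones and the other between them (−0.21, SE 0.27, adjusted p = 0.49, with 0.0074 to 0.90 over the alternatives). The LPS value was −0.77 with library size only, which passed. Orc6, the small origin subunit gene, fell by 0.77 in Cop1 KO (SE 0.13) and by 0.44 with LPS (SE 0.13), the latter not passing with DESeq2 or on the log2(nRPKM + 0.1) scale.

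Of the 6 genes of the MCM ring, the helicase core, 5 fell in Cop1 KO and all 6 fell with LPS, to very different extents. Mcm6 (chromosome 1, 128331575 to 128359705) had the smallest changes of the 6. It stood at 83.2 and 79.3 CPM untreated, 75.2 and 76.5 in Cop1 KO and 61.5 and 61.8 with LPS. The Cop1 KO libraries were below the untreated ones by an amount that did not pass (−0.10, SE 0.05, adjusted p = 0.074, with 6e-07 to 0.91 over the alternatives), and it passed with library size only (−0.29) and with only the 2 groups compared (−0.10); on the nRPKM scale the libraries overlapped. With LPS it fell 1.32-fold (−0.40, SE 0.05, adjusted p = 9.3e-10). Mcm2 went from 27.0 and 25.9 CPM untreated to 14.0 and 13.9 in Cop1 KO and 5.48 and 5.49 with LPS, without overlap between any of the groups. That is 1.90-fold lower in Cop1 KO (−0.93, SE 0.09) and 4.82-fold lower with LPS (−2.27, SE 0.12, adjusted p = 1.2e-25). Mcm5 was the MCM ring gene with the largest decrease in Cop1 KO, from 33.3 and 33.6 to 13.7 and 13.4 CPM (−1.30, SE 0.08, adjusted p = 2e-20), and with LPS it was at 11.2 in both libraries (−1.58, SE 0.09). Mcm3, Mcm4 and Mcm7 fell by 0.60 to 0.66 in Cop1 KO and by 1.59 to 2.13 with LPS. Of the 50-base words in Mcm7 transcripts, 23.3% also occur in other genes' transcripts, so its unique counts are uncertain.

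The ring holds each subunit once, yet the 6 genes did not have equal RNA levels per length. In untreated wild type the mean nRPKM was 19.0 for Mcm6, 12.1 for Mcm3, 6.56 for Mcm5, 6.42 for Mcm4, 5.32 for Mcm2 and 3.67 for Mcm7. The nRPKM of Mcm6 was 3.58 and 3.55 times that of Mcm2 untreated, 6.24 and 6.41 times in Cop1 KO and 13.1 times in both LPS libraries. The ratio of Mcm3 to Mcm7 stayed between 2.62 and 3.64 in the 6 libraries. These ratios within a library do not depend on the scaling. A difference in level between genes does depend on the gene lengths behind nRPKM and on how many reads align uniquely. The lengths were not examined for the 6 genes. The share of 50-base words also found in other genes' transcripts was 23.3% for Mcm7 and 0.0% to 1.5% for the other ring genes.

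**Figure D3:**
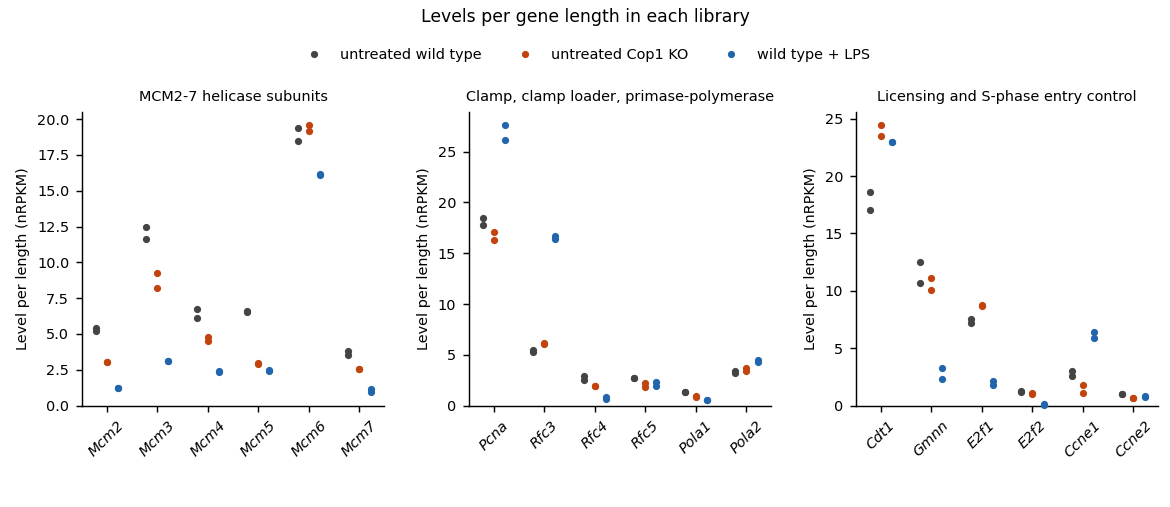
Level per gene length (nRPKM, linear axis from 0) of 18 of the genes in the 6 libraries, 1 point per library. Mcm6 stands above the other MCM ring genes in every library, and Pcna, Rfc3 and Ccne1 have their highest points with LPS.

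The helicase activators split. MCM10 helps start the helicase, and Mcm10 was at 11.5 and 12.9 CPM untreated, 3.69 and 4.90 in Cop1 KO and 12.6 in both LPS libraries. Its RNA was 2.84-fold lower in Cop1 KO (−1.51, SE 0.14, adjusted p = 1.3e-14), and with LPS the libraries overlapped the untreated ones (0.04, SE 0.11, adjusted p = 0.74, with 4e-05 to 0.92 over the alternatives). With library size only the LPS value was −0.52. Cdc45, a fixed part of the running helicase, went from 7.78 and 7.46 CPM untreated to 2.93 and 3.44 in Cop1 KO (−1.26, SE 0.17) and 2.12 and 1.57 with LPS (−2.03, SE 0.22), with no overlap.

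Of the 6 genes of the replicative polymerases and primase, 4 fell in Cop1 KO (not Pola2 or Pold1), and with LPS 5 fell and Pola2 rose. Pole, the catalytic subunit of the leading-strand polymerase, went from 12.9 and 14.1 CPM untreated to 4.37 and 4.94 in Cop1 KO (−1.53, SE 0.14, adjusted p = 5.7e-15) and 2.91 and 4.17 with LPS (−1.94, SE 0.16). Pold1, the catalytic subunit of the lagging-strand polymerase, fell only with LPS. It was at 24.8 and 21.2 CPM untreated, 23.1 and 20.4 in Cop1 KO and 5.48 and 6.76 with LPS. The Cop1 KO libraries overlapped the untreated ones (−0.08, SE 0.09, adjusted p = 0.45; −0.27 with library size only, which passed), and the LPS libraries were 3.76-fold lower (−1.91, SE 0.13, adjusted p = 3.5e-21). The direct test of Cop1 KO against LPS gave 1.83 (SE 0.13, adjusted p = 4.6e-20). Prim1, the catalytic primase subunit, was at 7.66 and 7.23 CPM untreated, 3.29 and 3.31 in Cop1 KO (−1.17, SE 0.17) and 1.29 and 1.87 with LPS (−2.24, SE 0.23, adjusted p = 1.9e-14). Prim2 and Pola1 fell by 0.53 and 0.73 in Cop1 KO and by 1.19 and 1.44 with LPS. Pola2 encodes the regulatory subunit that binds the Pola1 product. It was at 20 and 20.9 CPM untreated, 21.0 and 19.0 in Cop1 KO (−0.03, SE 0.08, adjusted p = 0.77; −0.22 with library size only, which passed) and 24.8 and 23.4 with LPS. The LPS increase of 0.24 (SE 0.08, adjusted p = 0.0089, with 2.3e-05 to 0.092 over the alternatives) became −0.33 with library size only and missed the threshold without LPS replicate 1 (0.19, adjusted p = 0.092) or untreated replicate 1 (0.20, adjusted p = 0.083). Per length, the ratio of Pola2 to Pola1 was 2.51 and 2.54 untreated, 4.45 and 3.78 in Cop1 KO and 8.88 and 7.33 with LPS.

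Among the 39 genes, the sliding clamp and 1 clamp loader gene rose with LPS while the other 2 loader genes fell. Outside the 39, the loader genes Rfc1 and Rfc2 fell with LPS by 0.93 and 0.70. Rfc3 (chromosome 5, 151642817 to 151651208), a small subunit of the loader that opens PCNA, was at 12 and 11.6 CPM untreated, 12.3 in both Cop1 KO libraries and 32.2 and 32.7 with LPS. It rose 2.75-fold with LPS (1.46, SE 0.09, adjusted p = 9.8e-22), the largest increase among the 39 genes, and kept that call in all 13 alternatives. In Cop1 KO the difference was 0.06 (SE 0.10, adjusted p = 0.61), and on the nRPKM scale it passed, at 0.16 to 0.19. Rfc4 went the other way, from 5.16 and 4.51 CPM untreated to 3.24 and 3.13 in Cop1 KO (−0.60, SE 0.18, adjusted p = 0.0037) and 1.34 and 1.03 with LPS (−2.02, SE 0.27, adjusted p = 8.6e-11). The Cop1 KO decrease of Rfc4 did not pass with DESeq2 or without untreated replicate 1 (−0.50, adjusted p = 0.06, with 0.00015 to 0.14 over the alternatives). Per length, the ratio of Rfc3 to Rfc4 was 1.90 and 2.10 untreated, 3.10 and 3.21 in Cop1 KO and 19.6 and 26.1 with LPS. Rfc5 fell by 0.56 in Cop1 KO (SE 0.11) and by 0.53 with LPS (SE 0.12). Pcna (chromosome 2, 132249286 to 132253180) was at 34.5 and 33.2 CPM untreated, 29.2 and 27.7 in Cop1 KO and 46.0 and 43.5 with LPS. Its change had opposite signs, −0.25 in Cop1 KO (SE 0.07, adjusted p = 0.0013) and 0.40 with LPS (SE 0.07, adjusted p = 4e-07), and the direct test of Cop1 KO against LPS gave −0.66 (SE 0.07, adjusted p = 2.9e-12). With library size only the LPS value was −0.16, and with DESeq2 or on the nRPKM scale the Cop1 KO decrease did not pass (adjusted p from 1.4e-07 to 0.13 over the alternatives). Of the 50-base words in Pcna transcripts 19.1% also occur in the pseudogene Pcna-ps2.

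Genes that finish lagging-strand fragments and coat single-stranded DNA fell in both conditions, and the direct test put Fen1, Lig1 and Rpa1 higher, and Rpa2 lower, in Cop1 KO than with LPS. Fen1, the flap nuclease gene, was at 34.3 and 36.2 CPM untreated, 23.1 and 23.3 in Cop1 KO and 18.8 and 18.2 with LPS. Of the exonic bases of Fen1, 84.2% overlap genes on the opposite strand, Tmem258 among them, and the unstranded library does not separate them. Tmem258 was at 28.0 to 31.8 CPM untreated, 33.6 and 33.9 in Cop1 KO and 30.7 and 29.3 with LPS. Lig1, the ligase that seals the fragments, fell by 0.52 in Cop1 KO (SE 0.07) and by 1.53 with LPS (SE 0.09). Rpa1, the large subunit of the single-strand binding protein, fell from 64.9 and 66.1 CPM to 46.1 and 44.9 in Cop1 KO (−0.53, SE 0.06) and to 24.0 and 21.9 with LPS (−1.51, SE 0.07). Rpa2, the gene of its partner subunit, fell by 0.64 in Cop1 KO (SE 0.10), while its LPS value of −0.27 (SE 0.10, adjusted p = 0.013) did not pass in 7 of the 13 alternatives, among them those without LPS replicate 1 (adjusted p = 0.053) and without untreated replicate 2 (0.096), within 5.7e-11 to 0.47 over all of them.

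Deoxynucleotide supply genes all fell in Cop1 KO, with a median of −1.38 over 4 genes. Rrm2 (chromosome 12, 24708254 to 24714146), the small subunit of ribonucleotide reductase, fell most of all 39 genes in Cop1 KO. It went from 24.9 and 23.6 CPM untreated to 4.23 and 3.71 in Cop1 KO and 3.13 and 4.41 with LPS. The Cop1 KO and LPS libraries overlapped each other and lay far below the untreated ones. Cop1 KO libraries held 6.10-fold less (−2.61, SE 0.13, adjusted p = 4.9e-26). LPS libraries held 6.47-fold less (−2.69, SE 0.15, adjusted p = 1.1e-25). Rrm1, the large subunit gene, went from 72.5 and 73.8 CPM to 31.3 and 32.9 in Cop1 KO (−1.19, SE 0.06) and 20.6 and 19.5 with LPS (−1.86, SE 0.07). Per length, the ratio of Rrm1 to Rrm2 was 1.59 and 1.71 untreated, 4.03 and 4.84 in Cop1 KO and 3.59 and 2.41 with LPS. Tyms, the thymidylate synthase gene, fell in Cop1 KO and not with LPS. It was at 5.08 and 6.34 CPM untreated, 2.25 and 1.63 in Cop1 KO (−1.56, SE 0.21, adjusted p = 8.4e-10) and 5.81 and 5.19 with LPS (−0.05, SE 0.17, adjusted p = 0.78; −0.62 with library size only, which passed). Tk1, the thymidine kinase of the salvage route, fell by 1.21 (SE 0.14) and 1.35 (SE 0.16).

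Of the 4 genes that control S-phase entry, 3 fell in Cop1 KO and 3 with LPS, but not the same 3. E2f2 and E2f1 encode activating E2F factors. E2f2 (chromosome 4, 136172274 to 136196057) was at 9.33 and 9.06 CPM untreated, 7.43 and 7.06 in Cop1 KO and 0.559 and 0.664 with LPS. The LPS level rests on 10 and 11 counts, against 235 and 243 untreated, and is 14.9-fold lower (−3.90, SE 0.33, adjusted p = 1.1e-21), the largest change among the 39 genes. In Cop1 KO the value was −0.34 (SE 0.13, adjusted p = 0.017, with 0.00024 to 0.33 over the alternatives), and it did not pass in 7 of the 13 alternatives, including those without Cop1 KO replicate 2 (adjusted p = 0.097), untreated replicate 1 (0.084) or untreated replicate 2 (0.054). E2f1 was at 34.5 and 32.8 CPM untreated, 36.7 and 36.2 in Cop1 KO and 7.38 and 8.69 with LPS. Its RNA did not pass in Cop1 KO (0.11, SE 0.07, adjusted p = 0.15), although both libraries were above the untreated ones and it passed with median-of-ratios factors (0.20) and on log2(nRPKM + 1) (0.22). With LPS it was 4.20-fold lower (−2.07, SE 0.10, adjusted p = 1.5e-26).

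Cyclin E binds CDK2 and pushes the cell into S phase, and its 2 genes did not move alike. Ccne1 (chromosome 7, 38097984 to 38107490) was at 7.38 and 8.76 CPM untreated, 2.84 and 4.81 in Cop1 KO and 16.5 and 15.2 with LPS. It fell 2.11-fold in Cop1 KO (−1.08, SE 0.16, adjusted p = 4.5e-08). LPS libraries held 1.96-fold more (0.97, SE 0.13, adjusted p = 1.2e-09), and the direct test gave −2.05 (SE 0.16, adjusted p = 4.1e-18). These calls held in all 13 alternatives. Ccne2 fell by 0.74 in Cop1 KO (SE 0.17, adjusted p = 0.00012) and by 0.50 with LPS (SE 0.17, adjusted p = 0.0066), the latter not passing with median-of-ratios factors, DESeq2, the log2(nRPKM + 0.1) scale or only the 2 groups compared. Of its exonic bases 17.4% overlap Ints8 on the opposite strand.

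Chromatin genes that work behind the fork were lower with LPS throughout, and in Cop1 KO they ranged widely. UHRF1 recruits the maintenance methyltransferase DNMT1 to newly copied DNA, and the RNAs of this pair parted in Cop1 KO. Uhrf1 went from 12.9 and 13.3 CPM untreated to 3.33 and 3.05 in Cop1 KO (−2.04, SE 0.15, adjusted p = 1.1e-18) and 2.74 and 2.72 with LPS (−2.26, SE 0.17, adjusted p = 3.5e-19). Dnmt1 (chromosome 9, 20907206 to 20959888) was at 132 and 129 CPM untreated, 122 and 120 in Cop1 KO and 38.1 and 37.0 with LPS. Its Cop1 KO difference of −0.11 (SE 0.04, adjusted p = 0.016) was 0.02 on the nRPKM scale and did not pass in 8 of the 13 alternatives, among them those without any single untreated or Cop1 KO library (adjusted p 0.051 to 0.15, within 4.8e-09 to 0.76 over all alternatives). With LPS it fell 3.48-fold (−1.80, SE 0.05, adjusted p = 2.3e-36). Chaf1a and Chaf1b encode the chaperone that places histones on new DNA. Chaf1b went from 14.8 and 13.9 CPM to 8.28 and 8.52 in Cop1 KO (−0.77, SE 0.11) and 2.91 and 2.72 with LPS (−2.34, SE 0.17, adjusted p = 1.2e-20). Chaf1a fell by 1.04 and 1.93, but 52.5% of its exonic bases overlap Ubxn6 on the opposite strand, which was at 52.2 to 67.6 CPM over the 6 libraries.

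Genes with and without E2F letters in the promoter window both mostly fell. Of the 14 genes with E2F letters, 10 fell and 1 rose in Cop1 KO (median −0.56), and of the 20 without, 18 fell and 0 rose (median −0.85). With LPS, 11 of the 14 fell and 2 rose (median −1.69), and 15 of the 20 fell and 3 rose (median −1.43). Over all tested genes 30.3% fell and 28.1% rose in Cop1 KO, and 43.4% fell and 30.2% rose with LPS. Rfc3 is among the 14, with matches beginning 10 bases before and at its start, and so is Cdt1. The split rests on the 8-letter forms. Without their first T these letters match 22 of the 34 genes, so some of the 20 hold the shorter form. The difference between genes with and without matches was not tested.

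Set directly against LPS, Cop1 KO libraries held more RNA of most replication genes. As the 2 groups share their controls, this contrast is the test of whether the 2 changes differ. Markers of other cells differed in it too. In Cop1 KO 11 of 11 astrocyte markers (median −3.44) and 8 of 9 neuron markers (median −4.18) were lower, with 0 higher. Of 8 oligodendrocyte lineage markers 6 were lower and 2 higher, and of 12 microglia markers 9 were higher and 2 lower. Their part in the replication gene differences was not tested. Of the 39 genes 23 were higher in Cop1 KO, 9 were lower and 7 did not pass, where 39.9% of all genes were higher and 39.6% lower. With library size only, 29 members were higher and 6 lower, and over all genes 8467 were higher and 4653 lower (6220 and 6179 with TMM factors). E2f2 (3.56, SE 0.33), E2f1 (2.18, SE 0.10), Gmnn (1.97, SE 0.15), Pold1 and Dnmt1 (1.69, SE 0.05) led the first group. The lower ones were Ccne1, Mcm10 (−1.55, SE 0.14), Tyms (−1.50, SE 0.22), Rfc3 (−1.40, SE 0.09), Orc1 (−1.11, SE 0.34), Pcna, Rpa2, Orc6 and Pola2. Rrm2 (0.08, SE 0.18, adjusted p = 0.68), Uhrf1 (0.22, SE 0.20), Tk1 (0.14, SE 0.18), Cdc6 (0.67, SE 0.39), Cdt1, Rfc5 and Ccne2 did not pass. Of these 7, 6 passed as higher in Cop1 KO with library size only: Rrm2 (0.45), Uhrf1 (0.59), Tk1 (0.51), Cdc6 (1.04), Cdt1 (0.46) and Rfc5 (0.35). The calls of Orc1, Orc6, Pola2 and Rpa2 (lower) and of Mcm5 and Pole (higher) were lost in at least 1 alternative. Orc1 missed the threshold without LPS replicate 2 (−0.72, adjusted p = 0.12), and Pole without Cop1 KO replicate 2 (0.32, adjusted p = 0.17) or LPS replicate 1 (0.17, adjusted p = 0.49). Orc6 lost its call without Cop1 KO replicate 2 (−0.20, adjusted p = 0.27) or LPS replicate 1 (−0.25, adjusted p = 0.20). Pola2 did so without the same libraries (−0.19 and −0.22, adjusted p = 0.082 and 0.052).

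**Figure D4:**
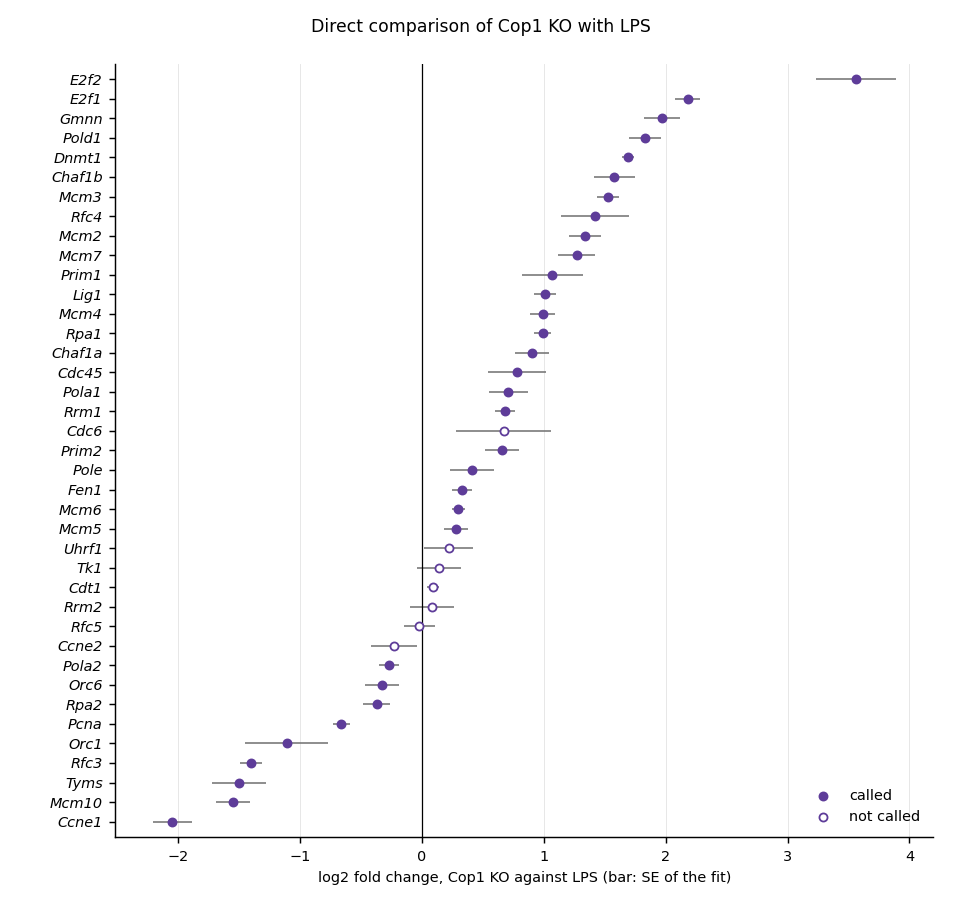
The log2 fold change of Cop1 KO against LPS for the 39 genes, ordered by size, with the standard error of the fit as bars and open symbols for genes that did not pass. The range runs from Ccne1 at −2.05 to E2f2 at 3.56.

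A further 69 genes of replication, nucleotide supply and S-phase control were listed by function. In Cop1 KO 37 of them fell, 7 rose and 25 did not pass (median −0.30), where 30.3% of all genes fell and 28.1% rose. With LPS 49 fell, 12 rose and 8 did not pass (median −0.93), where 43.4% of all genes fell and 30.2% rose. Among initiation genes Ticrr, which bridges CDC45 to origins, fell by 1.62 (SE 0.22) in Cop1 KO and 2.70 (SE 0.31) with LPS. In Cop1 KO Cdc7, the kinase that fires origins, fell by 1.29, and with LPS Recql4 fell by 2.35. Mcm9 (0.47) and Mcmbp (2.28, SE 0.04), which encodes an MCM-binding protein, rose with LPS. Among fork genes Pclaf, a PCNA-binding factor, and the checkpoint mediator Clspn fell by 2.94 and 2.23 in Cop1 KO, and with LPS the polymerase epsilon subunit gene Pole2 fell by 3.29 and the nuclease gene Dna2 by 2.96. Timeless, of the fork protection complex, rose with LPS from 10.9 and 11.1 to 43.4 and 45.3 CPM (2.01, SE 0.09), as did Rnaseh2b (0.71), Pole4 (0.52) and Pold3 (0.50). In Cop1 KO Rnaseh2c (0.27), Rfc2 (0.22) and Pold4 (0.19) rose. Among cell cycle control genes Ccna2 fell by 1.71 and the repressor gene E2f7 by 2.43 in Cop1 KO, E2f7 fell by 2.74 with LPS, and Rbl1, which encodes the retinoblastoma relative p107, rose with LPS from 29.5 and 32.1 to 214 and 227 CPM (2.84, SE 0.05). E2f4 rose in both (0.19 and 0.30) and E2f5 with LPS (1.34). Among chromatin genes Hells and Asf1b fell by 1.22 and 1.08 in Cop1 KO, Atad2 and Hells by 2.81 and 2.23 with LPS, and Asf1a, which shares 48.0% of its exonic bases with Mcm9 on the opposite strand, rose with LPS by 0.80. With library size only, the LPS increases of Mcm9 (−0.09), Pole4 (−0.04), Pold3 (−0.07) and E2f4 (−0.26) turned sign and those of Rnaseh2b (0.15) and Asf1a (0.24) did not pass. That scaling also left the Cop1 KO increases of Rnaseh2c (0.08), Rfc2 (0.03), Pold4 (−0.0) and E2f4 (−0.01) short of the threshold. On the nRPKM scale the Cop1 KO increase of Rnaseh2c did not pass either (0.37 and 0.38). In Cop1 KO the increases of Pold4, Rfc2 and E2f4 did not pass without untreated replicate 1 (0.13, 0.16 and 0.16), and that of Rnaseh2c did not without Cop1 KO replicate 1 (0.08). The Cop1 KO increase of Pold4 also missed without that library (0.15), and that of Rnaseh2c without untreated replicate 2 (0.24).

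Nucleotide supply genes outside the 39 moved in both directions. Samhd1 encodes the enzyme that breaks down deoxynucleotides, and it rose from 230 and 235 CPM untreated to 361 and 377 in Cop1 KO (0.67, SE 0.03) and 3353 and 3415 with LPS (3.86, SE 0.03, adjusted p = 1.1e-61). Dck, the deoxycytidine salvage kinase gene, rose by 0.85 and 2.23. Tk2, the mitochondrial thymidine kinase gene, rose by 0.55 in Cop1 KO and fell by 0.82 with LPS. Dctpp1, which clears non-standard nucleotides, fell by 1.27 with LPS. Dut, which removes dUTP, fell by 0.55 in Cop1 KO and by 2.05 with LPS, and the Cop1 KO decrease did not pass with DESeq2 or on the nRPKM scale.

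Genes of mitosis fell further than the replication genes in Cop1 KO by their median, and that difference was not tested. All 22 fell in Cop1 KO (median −2.14), and with LPS 21 fell and Tpx2, a spindle assembly gene, rose by 1.40 (median −2.55). Their summed level was 602 and 624 CPM untreated, 154 and 159 in Cop1 KO and 222 and 226 with LPS, of which Tpx2 made up 106 and 108. The 39 replication genes summed to 1012 and 1006, 735 and 728, and 516 and 508 CPM. Markers of other cells moved in the same libraries. Beside the marker and mitosis counts, 30.3% of all genes fell and 28.1% rose in Cop1 KO. With LPS 43.4% of all genes fell and 30.2% rose. In Cop1 KO 10 of 11 astrocyte markers fell (median −3.83), while Aldh1l1 rose by 0.25 (edgeR adjusted p = 0.015), though not in every alternative. Of 9 neuron markers tested 9 fell (summed level 63.4 and 64.1 CPM untreated, 3.78 and 4.81 in Cop1 KO). Of 8 oligodendrocyte lineage markers 6 fell and 1 rose (238 and 233 CPM untreated, 132 and 133 in Cop1 KO). Of 12 microglia markers 9 rose and 0 fell. Their part in the lower replication RNA of Cop1 KO was not tested. With LPS 2 of 11 astrocyte markers fell and 5 rose (median 0.12), 2 of 9 neuron markers fell and 1 rose, and 9 of 12 microglia markers fell and 3 rose. Of 8 oligodendrocyte lineage markers 4 fell and 1 rose with LPS (163 and 154 CPM). Fibroblast markers (10 genes) summed to 198 and 192 CPM untreated, 354 and 341 in Cop1 KO and 165 and 167 with LPS. Of these, 7 were tested, and 6 rose and 1 fell in Cop1 KO, and 3 rose and 1 fell with LPS. Endothelial and mural markers (7 genes) summed to 144 to 162 CPM over the 6 libraries, although their members moved. Of 5 tested, 3 rose and Vwf fell in Cop1 KO, and with LPS 4 rose (Pdgfrb by 4.33, Pecam1 by 2.32, Cdh5 by 1.45 and Flt1 by 1.18) and Vwf fell by 1.14. Monocyte and macrophage markers (8 genes) summed to 12992 and 13258 CPM untreated, 24071 and 24119 in Cop1 KO and 9306 and 9240 with LPS, most of it from Lyz2 (12342 and 12597, 23325 and 23354, and 8592 and 8517 CPM). Of 6 tested, 3 fell (Mrc1, Ccr2 and F13a1) and 2 rose in Cop1 KO (median −0.52), and 5 fell and 1 rose with LPS (median −0.75). Lymphocyte markers (7 genes) summed to 0.279 to 0.873 CPM.

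**Figure D5:**
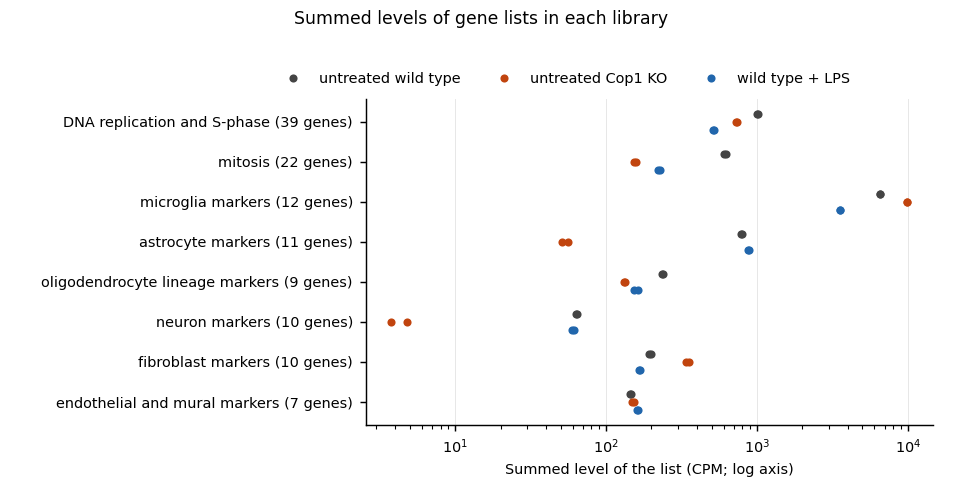
Summed level in CPM (horizontal log axis) of the replication genes, mitosis genes and cell type markers in the 6 libraries, 1 point per library. Replication and mitosis genes are lower in both Cop1 KO and LPS than untreated, astrocyte and neuron markers are lowest in Cop1 KO, and microglia markers are highest in Cop1 KO.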

How the data were processed

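The 6 libraries hold polyadenylated RNA from cultured mouse microglia, 2 for each group (wild type untreated, Cop1 KO untreated, wild type with LPS). The labels' protocols name a TruSeq RNA v2 kit, which does not mark strand, and single-end reads of 50 bases. The authors aligned reads with GSNAP to GRCm38, per the submitters' processing notes, with no version or annotation given in the sources used here. Per the file headers, the deposited count is the number of uniquely aligned reads in a gene model. The deposited RPKM values (nRPKM) are, per the file headers, adjusted by size factors, whose method is not given.

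Symbols came from RefSeq by Entrez identifier (31049 of 36528 matched, and identifiers without a name held 1.075% to 1.307% of counts). Counts were tested in R 4.3.3 with edgeR 4.0.16: filterByExpr by group, TMM factors (1.192 and 1.19 untreated, 1.042 and 1.042 Cop1 KO, 0.806 and 0.806 LPS), 1 quasi-likelihood fit of all 6 libraries with 3 residual degrees of freedom, contrasts between groups, and Benjamini-Hochberg adjustment over 15585 genes, called below 0.05. The SE comes from the fit's weights and quasi-likelihood dispersion. The code was tested on simulated data. Alternatives were DESeq2 1.42.0, limma 3.58.1 on log2(nRPKM + 1) and log2(nRPKM + 0.1), other scalings and filters, and leaving out each library. Exon overlap and shared 50-base words came from GENCODE M21, and promoter windows from RefSeq. The members and lists were chosen with earlier results of these data known. Full values are given to the 8 members with the largest called change in each comparison, those called against the majority, those not called and those with opposite calls, and to others as space allowed. Of the further 69 genes, those named are the 2 largest called changes per role and comparison and those called against the majority, except 1 gene that is not reported here. No set test was run. No label names a batch or pairs libraries. Replicates correlated at r = 0.992 to 0.9926 across genes on the log2 count scale, and their counts differed beyond sampling noise (a chi-square of 1.579 to 2.472 for each degree of freedom). The common dispersion of the fit was 0.000732, a coefficient of variation of 2.7% between libraries of a group. Whether this spread is technical or between cultures cannot be told from the labels.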

Additional observations from a re-analysis of the deposited data

How the results depend on the processing

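Of the members called in Cop1 KO against untreated wild type, 28 of 33 lower calls and 0 of 1 higher calls held in all 13 alternatives. For LPS these were 28 of 31 lower and 2 of 5 higher, and for Cop1 KO against LPS 21 of 23 higher and 5 of 9 lower. With library size only, the LPS values that turned sign were Cdt1 (−0.36), Mcm10 (−0.52), Pola2 (−0.33) and Pcna (−0.16), and for Cop1 KO against LPS they were Orc6 (0.04), Pola2 (0.10), Rfc5 (0.35) and Rpa2 (0.00). Among the further genes, Mcm9 (−0.09), Pole4 (−0.04), Pold3 (−0.07) and E2f4 (−0.26) turned with LPS, and Pold4 (0.00) and E2f4 (−0.01) in Cop1 KO. Dnmt1 in Cop1 KO turned to 0.02 with either nRPKM setting. The members called higher in Cop1 KO numbered 2 with median-of-ratios scaling, 0 when scaled by library size only, 3 on log2(nRPKM + 1) and 2 on log2(nRPKM + 0.1). In that order, the same settings called 5490, 2319, 5574 and 5471 of all genes higher, beside 4374 with edgeR and TMM factors. With library size only 2 members were higher with LPS, and over all genes 2319 were higher and 7200 lower in Cop1 KO (4374 and 4727 with TMM factors) and 2678 higher and 10770 lower with LPS (4714 and 6767). Over all genes, leaving out 1 library gave 3630 to 4513 higher and 4075 to 4883 lower in Cop1 KO, 4465 to 4820 and 6200 to 6935 with LPS, and 5849 to 6212 and 5966 to 6233 for Cop1 KO against LPS. Among the members it gave 30 to 33 members lower and 1 higher in Cop1 KO, 30 to 31 lower and 4 to 5 higher with LPS, and 22 to 23 higher and 7 to 9 lower for Cop1 KO against LPS. The 7-letter E2F forms (the same letters without the first T) matched 22 of 34 member promoters and 18.7% of tested genes. No paired analysis was possible because no label pairs libraries. The labels give no replicate numbers, so replicates 1 and 2 of each group are numbered here in sample order. The causes of these changes were not tested.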

Other observations

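Rbl1 and Samhd1, both strongly higher with LPS, are neighbours on chromosome 2 (GRCm38), 10796 bases apart, with Samhd1 at 157097534 to 157135096 and Rbl1 at 157145893 to 157204534. In Cop1 KO they moved in opposite directions, Samhd1 by 0.67 and Rbl1 by −0.40 on the log2 scale. This pair was chosen after its values were seen.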
